A study of Rattus norvegicus with 8 samples.

Results

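The transcripts followed here belong to 10 genes that make fatty acids in the liver and then lengthen, desaturate or esterify them: Fasn, Acaca, Acly, Srebf1, Mlxipl, Elovl5, Elovl6, Fads1, Fads2 and Gpam. Members were taken as all probe sets whose only gene symbol in the platform annotation is one of these names, which gave 16 probe sets, with each of the 10 genes represented, out of 31099 probe sets on the array. The selection rule itself uses only the gene symbol, but the genes were chosen with earlier results of these data known. RNA came from livers of 8-week-old male rats of the outbred Sprague-Dawley strain, which ate a commercial chow freely. The control group drank sterilized distilled water for 4 weeks, and the other group drank water with 0.7 mM dissolved molecular hydrogen (pH 7.4) for the same time. The study kept 8 rats per group, and 4 arrays per group were analysed here, each array read as 1 sample. Nothing ties an array to 1 rat or to a pool of rats, so each p-value reflects only how these arrays spread, part of which may be technical.

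De novo lipogenesis turns surplus carbohydrate into fat. Citrate exported from mitochondria is split to acetyl-CoA, acetyl-CoA is carboxylated to malonyl-CoA, and fatty acid synthase joins these units into palmitate. In liver the pathway is driven at the level of transcription by SREBP-1c, which answers to insulin and to the oxysterol receptor LXR, and by ChREBP, which answers to glucose. Elongases and desaturases then shape the products, and also convert dietary linoleic and linolenic acid into long polyunsaturated fatty acids, which are known to restrain SREBP-1c.

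The array medians of the deposited signal ran from 17.2 to 26.8, so the arrays were quantile-normalized, and values below are log2(signal + 2.05) unless named otherwise. Hydrogen water arrays were dimmer, with a 2% trimmed mean signal of 92.0 ± 10.4 against 116 ± 18.8 (SD over 4 arrays; two-sided exact permutation p = 0.114). Gapdh, read by 3′ and 5′ probe sets to judge RNA integrity, had a log2 3′ to 5′ ratio of 0.38 ± 0.08 in that group and 0.22 ± 0.10 in controls (SD over 4 arrays; two-sided exact permutation p = 0.0571, where 70 arrangements allow no p under 0.0286). The part of these array differences in the values below was not tested. All 6 measured hepatocyte markers lay at or above the 98.8 percentile of signal. Of 5 measured adipocyte markers, Adipoq, Plin1, Lep and Fabp4 lay below the median of all probe sets, only Cfd was tested, and the summed signal ran from 156 to 196 in controls and from 139 to 185 with hydrogen water. Fewer cells of a type and less RNA per cell cannot be told apart in whole liver.

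Promoter sequence is shown for Srebf1, the member that varied most between arrays of 1 group, and for Fads1 and Elovl5, whose signals were lowest on the hydrogen water array where Srebf1 was highest. The sequences are those of RefSeq for the rat build GRCr8, where 7 of the 10 genes had an entry, and Fasn, Acaca and Elovl6 had none. Each is printed 5′ to 3′ on the gene's strand and stops before the transcription start or before the annotated span of the gene. Capitals mark, on either strand, the CCAAT box bound by NF-Y, the GC box GGGCGG and the E-box form CACGTG.
Srebf1, first start, chr10:45529165-45529414, minus strand: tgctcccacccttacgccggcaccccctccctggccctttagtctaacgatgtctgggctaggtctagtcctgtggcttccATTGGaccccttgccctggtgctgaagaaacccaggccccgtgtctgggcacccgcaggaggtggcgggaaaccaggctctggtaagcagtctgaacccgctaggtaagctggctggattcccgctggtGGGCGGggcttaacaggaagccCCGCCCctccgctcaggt
Srebf1, start inside the gene, chr10:45519011-45519260, minus strand: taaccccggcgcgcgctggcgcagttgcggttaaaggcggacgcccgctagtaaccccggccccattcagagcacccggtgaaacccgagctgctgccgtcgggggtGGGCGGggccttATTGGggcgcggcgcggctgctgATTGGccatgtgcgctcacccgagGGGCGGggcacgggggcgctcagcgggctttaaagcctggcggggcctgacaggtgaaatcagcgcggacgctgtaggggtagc
Fads1, chr1:216252442-216252604, plus strand: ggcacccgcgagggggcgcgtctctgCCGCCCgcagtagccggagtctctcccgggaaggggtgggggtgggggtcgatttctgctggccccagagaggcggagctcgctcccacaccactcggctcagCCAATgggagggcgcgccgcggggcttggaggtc
Elovl5, chr8:87670914-87671163, plus strand: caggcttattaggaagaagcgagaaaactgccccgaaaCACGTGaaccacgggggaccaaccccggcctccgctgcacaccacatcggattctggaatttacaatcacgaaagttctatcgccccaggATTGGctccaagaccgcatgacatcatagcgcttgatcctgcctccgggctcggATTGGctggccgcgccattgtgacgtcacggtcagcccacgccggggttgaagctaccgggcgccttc

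The first Srebf1 window held 1 CCAAT and 2 GC boxes, and the window inside the gene held 2 of each. Elovl5 held 2 CCAAT boxes and 1 CACGTG, and the shorter Fads1 window of 163 bases held 1 CCAAT and 1 GC box. Over 33469 rat promoters, 34.0% of windows of 250 bases held CCAAT, 30.5% GGGCGG and 5.59% CACGTG, while in windows of 163 bases CCAAT was in 23.5% and GGGCGG in 18.4%. The letters TCACNCCAC, a form of the sterol regulatory element searched on both strands, matched none of the 4 windows and 0.97% of all windows of 250 bases and 0.62% of those of 163. A match is a description of these letters, and a window without one shows nothing about the factor.

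None of the 10 genes changed past the threshold when rats drank hydrogen water. Of the 16 probe sets, 14 passed a filter on low signal and were tested in limma, 0 of these had an adjusted p under 0.05, and 0 had an unadjusted p under 0.05. Over all 15521 tested probe sets the corresponding shares were 0.825% (128 probe sets, 69 higher and 59 lower with hydrogen water) and 12.5%. Both the probe sets that passed and their split moved with the scaling. The share that was higher was 53.9% of the 128, and 4.16% of the 505 that passed without normalization. It was 29.4% of 187 with median centring and 70.8% of 144 with spike-in scaling. Control and hydrogen water arrays overlapped at all 14 tested member probe sets. Among all those tested, 7.48% had groups that were fully apart, 3.85% with hydrogen water higher and 3.63% with it lower. By value, 7 of the 16 member probe sets were higher and 9 lower with hydrogen water, from −0.52 at Fads1 to 0.47 at one Acaca probe set, and the median was −0.04 beside 0.00 over all probe sets.

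**Figure D1:**
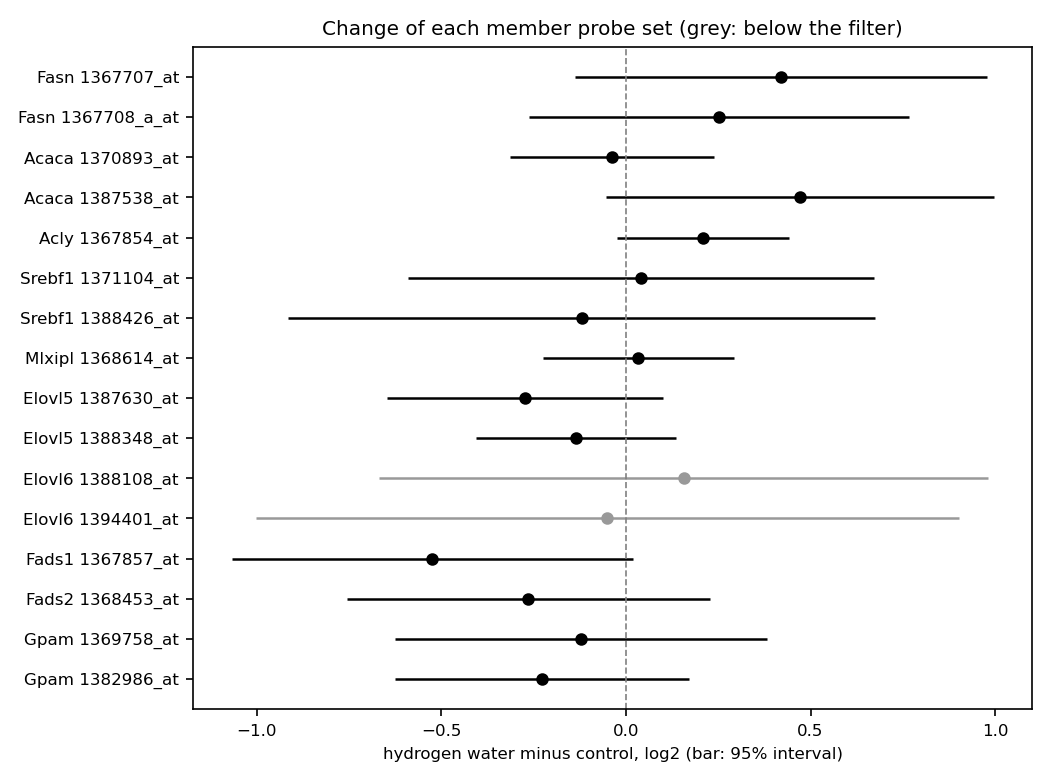
Change of each of the 16 member probe sets, as hydrogen water minus control in log2 (x axis), with its 95% interval from limma as a bar and n = 4 arrays per group. Grey marks the 2 Elovl6 probe sets below the signal filter. Every interval spans 0, and they reach from −1.07 at Fads1 to 1.00 at Acaca.

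Srebf1 encodes SREBP-1, the membrane-bound transcription factor whose cleaved form switches on fatty acid synthesis genes. At probe set 1388426_at its log2 signal was 7.94, 7.13, 8.18 and 7.28 on control arrays 1 to 4, and 7.32, 7.03, 8.69 and 7.01 on hydrogen water arrays 1 to 4. The highest of the 8 values was that of hydrogen water array 3, while hydrogen water arrays 2 and 4 lay below every control. Before normalization array 3 was not the highest, with a deposited signal of 335 against 371 on control array 3. The difference was −0.12 ± 0.36 (SE; 95% interval −0.91 to 0.67; adjusted p = 0.942). The second probe set, 1371104_at, read 6.70, 5.99, 6.58 and 6.13 in controls and 6.44, 6.08, 7.25 and 5.79 with hydrogen water. It had the same high array and differed by 0.04 ± 0.29 (SE; adjusted p = 0.979), with a sign opposite to that of the first. The spread within groups was large for this gene, with a pooled SD of 0.67 and 0.51 that exceeded those of 98.0% and 94.8% of tested probe sets, whose median SD was 0.22.

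Mlxipl encodes ChREBP, the glucose-responsive activator of glycolytic and lipogenic genes. Its log2 signal was 8.09, 8.07, 7.86 and 7.75 on control arrays 1 to 4, and 8.15, 7.99, 7.76 and 8.01 on hydrogen water arrays 1 to 4. The 8 values lay within about the same narrow range in both groups, and its pooled SD of 0.16 was larger than that of only 30.3% of tested probe sets. The difference was 0.03 ± 0.12 (SE; 95% interval −0.23 to 0.29; adjusted p = 0.953), a narrower interval than at Srebf1.

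The 3 enzymes that make palmitate came next in the pathway. Acly, ATP citrate lyase, supplies cytosolic acetyl-CoA, and it read 8.73, 8.54, 8.84 and 8.63 in controls and 8.72, 8.86, 9.11 and 8.88 with hydrogen water. Of the hydrogen water arrays, 3 exceeded every control array and array 1 lay among the controls. Before normalization none exceeded every control, with deposited signals of 535 and 584 on control arrays 1 and 3. The highest with hydrogen water was 468. The difference of 0.21 ± 0.11 did not pass (SE; 95% interval −0.02 to 0.44; adjusted p = 0.458).

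Acaca, acetyl-CoA carboxylase, makes malonyl-CoA in the committed step of the pathway. Probe set 1387538_at read 5.24, 4.54, 4.63 and 4.71 in controls and 5.33, 5.22, 5.70 and 4.75 with hydrogen water. All hydrogen water values were above the 3 lower controls, and control array 1 lay among them. Before normalization hydrogen water array 4 was not above them, with a deposited signal of 24.2 against 26.8 and 25.1 on control arrays 3 and 4. Its difference was 0.47 ± 0.24 (SE; 95% interval −0.05 to 1.00; adjusted p = 0.458). The other, brighter probe set, 1370893_at, read 7.77, 7.50, 7.73 and 7.73 in controls and 7.67, 7.52, 7.95 and 7.45 with hydrogen water. Here the groups spanned nearly the same range, with a difference of −0.04 ± 0.13 (SE; 95% interval −0.31 to 0.24; adjusted p = 0.950), so the 2 probe sets of this gene disagreed in sign.

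Fasn, fatty acid synthase, completes palmitate. Its probe set 1367707_at read 5.25, 4.56, 4.50 and 4.43 in controls and 4.71, 4.98, 5.62 and 5.10 with hydrogen water. Control array 1 stood above the other controls, which all lay below every hydrogen water array. Before normalization hydrogen water array 1 was not above them, with a deposited signal of 19.5 against 24.2 and 20.1 on control arrays 3 and 4. The difference was 0.42 ± 0.25 (SE; 95% interval −0.14 to 0.98; adjusted p = 0.562), and it was 0.60 without control array 1 and 0.25 without hydrogen water array 3. Probe set 1367708_a_at read 6.53, 5.63, 5.57 and 6.09 in controls and 5.92, 6.06, 6.68 and 6.16 with hydrogen water. It again had control array 1 and hydrogen water array 3 on top, and differed by 0.25 ± 0.23 (SE; adjusted p = 0.741). Leaving out 1 array gave 0.44 without control array 1, and 0.14, 0.12 and 0.093 without control array 2, control array 3 or hydrogen water array 3.

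**Figure D2:**
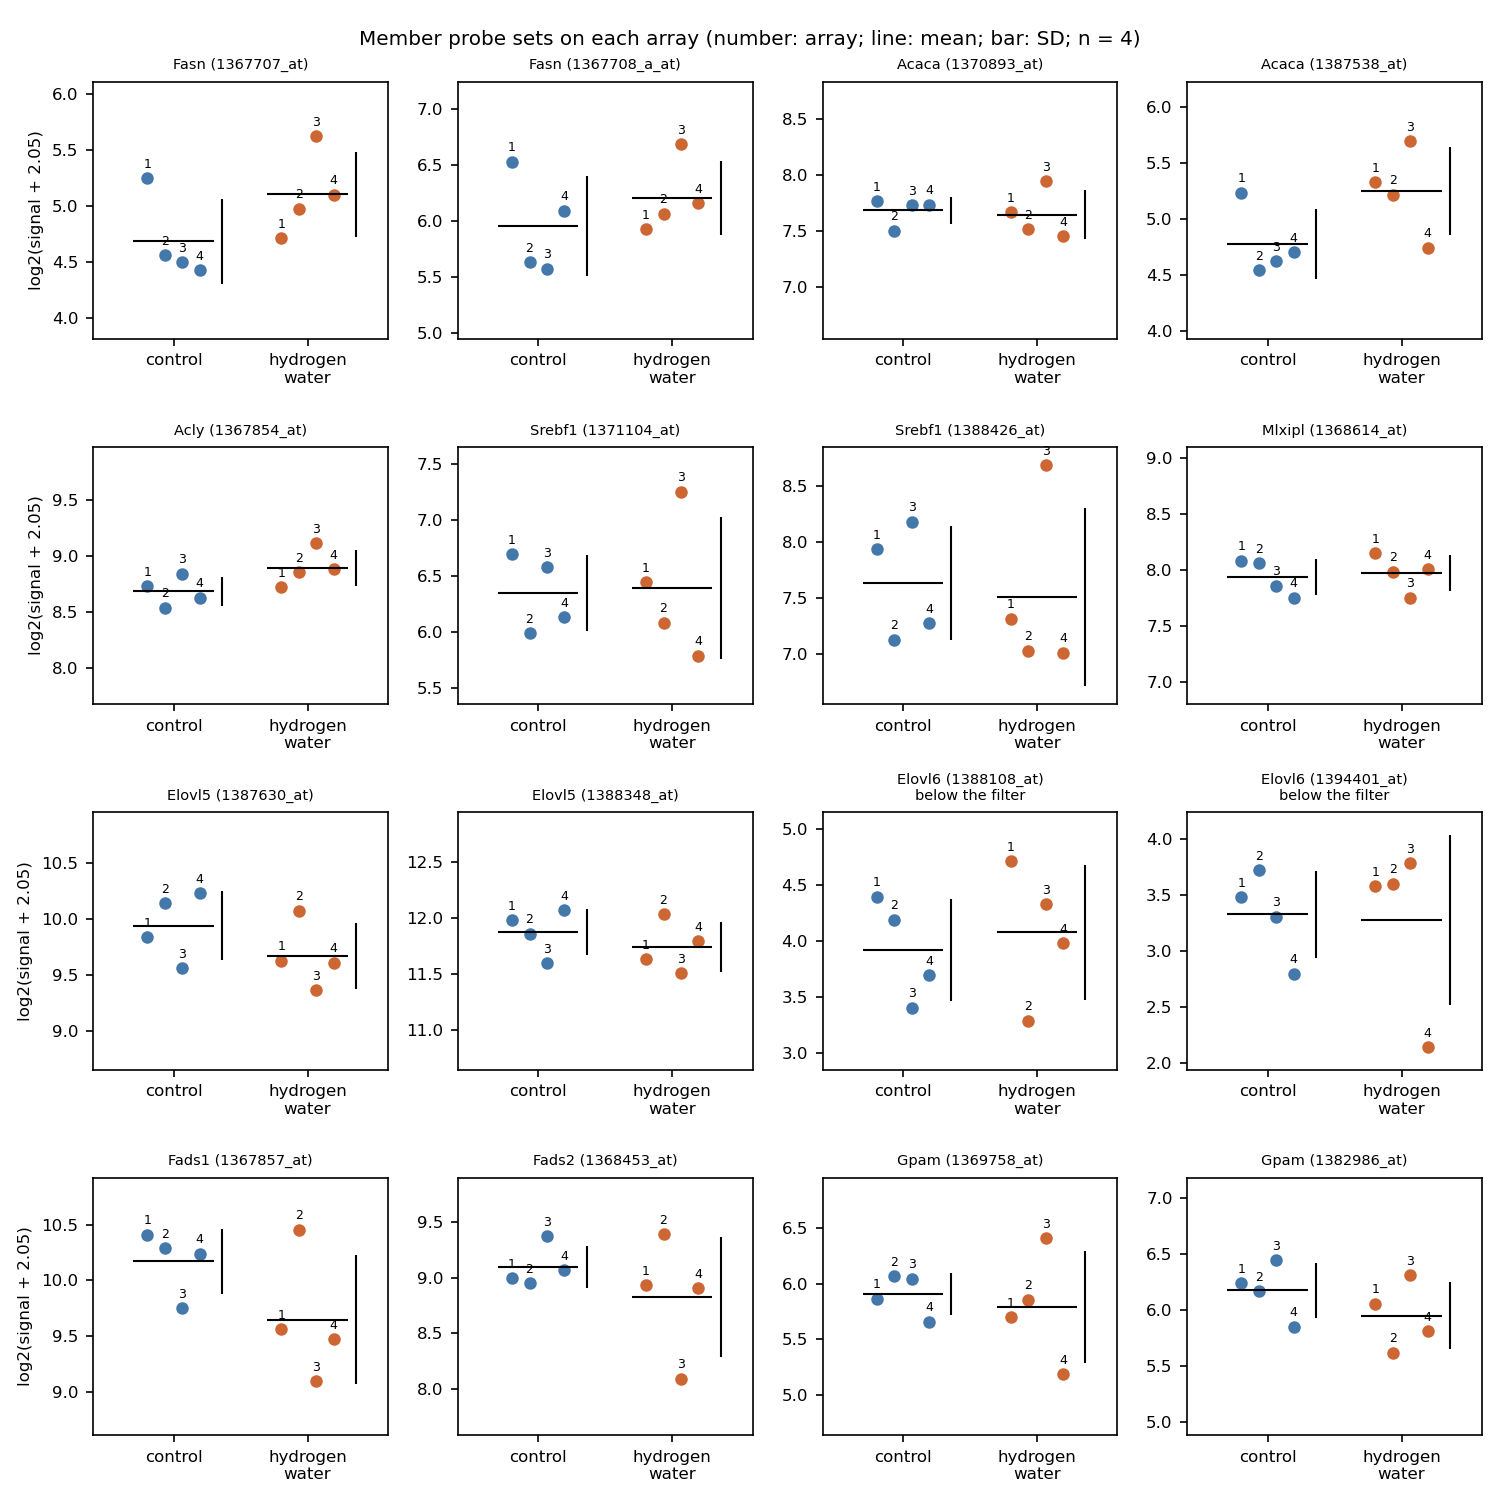
Log2 signal of each member probe set on each array (y axis), with 4 control arrays in blue and 4 hydrogen water arrays in orange, the array number beside each point, the group mean as a line and the SD as a bar. All panels span the same number of log2 units, and the groups overlap in all 16 panels.

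Elongases add carbon units to finished fatty acids. Elovl6 lengthens palmitate to stearate, and both of its probe sets were dim. Probe set 1388108_at had a log2 signal of 4.39, 4.19, 3.40 and 3.69 in controls and of 4.71, 3.29, 4.33 and 3.98 with hydrogen water, and 1394401_at one of 3.48, 3.72, 3.30 and 2.80 against 3.58, 3.60, 3.78 and 2.14. The groups overlapped widely at both. The deposited signals behind them ran from 2.46 to 24.3, all but 1 of them below the median of their array, and cannot be set apart from background here. In the fit without a filter the probe sets differed by 0.16 ± 0.38 and −0.05 ± 0.44 (SE; adjusted p = 0.955 and 0.989 in limma), with intervals of −0.67 to 0.98 and −1.003 to 0.90.

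Elovl5 lengthens polyunsaturated fatty acids. Its probe set 1387630_at read 9.84, 10.14, 9.56 and 10.23 in controls and 9.63, 10.07, 9.36 and 9.61 with hydrogen water. The hydrogen water arrays other than array 2 lay below 3 of the 4 controls. The difference was −0.27 ± 0.17 (SE; 95% interval −0.65 to 0.10; adjusted p = 0.576), and ran from −0.41 without hydrogen water array 2 to −0.17 without array 3. Probe set 1388348_at read 11.98, 11.86, 11.59 and 12.07 in controls and 11.63, 12.03, 11.51 and 11.79 with hydrogen water. In both groups array 3 was its lowest, and the difference was −0.14 ± 0.12 (SE; 95% interval −0.41 to 0.14; adjusted p = 0.737). It ran from −0.23 without hydrogen water array 2 or control array 3 to −0.070 without control array 4 and −0.057 without hydrogen water array 3.

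Fads2 and Fads1 are the fatty acid desaturases of polyunsaturated fatty acid synthesis, Fads2 acting before and Fads1 after an elongation step. Fads1 showed the largest difference of the 16 member probe sets in size. It read 10.41, 10.29, 9.75 and 10.24 in controls and 9.56, 10.46, 9.10 and 9.48 with hydrogen water. Hydrogen water arrays 1, 3 and 4 lay below every control, while array 2 was the highest of all 8. Before normalization hydrogen water array 2 was not the highest, with a deposited signal of 1291 against 1652 on control array 1. The difference was −0.52 ± 0.25 (SE; 95% interval −1.07 to 0.02; adjusted p = 0.424), a level 0.696 times that of controls. It was −0.79 without hydrogen water array 2 (adjusted p = 0.0606) and −0.34 without hydrogen water array 3, and it did not pass in limma in any of 20 alternative fits, where the lowest adjusted p was 0.0550, without normalization.

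Fads2 read 8.99, 8.95, 9.37 and 9.06 in controls and 8.93, 9.39, 8.09 and 8.90 with hydrogen water. Hydrogen water array 3 stood below all other arrays, and array 2 was the highest. Before normalization hydrogen water array 2 was not the highest, with a deposited signal of 628 against 845 on control array 3. The difference was −0.26 ± 0.22 (SE; 95% interval −0.76 to 0.23; adjusted p = 0.712), and it was −0.02 without hydrogen water array 3, −0.17 without control array 3 and −0.45 without hydrogen water array 2. Fads1, Fads2 and both Elovl5 probe sets had a negative difference in each of the 20 alternative fits.

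Gpam encodes the mitochondrial glycerol-3-phosphate acyltransferase, which starts the assembly of triglyceride from new fatty acids. Probe set 1369758_at read 5.86, 6.06, 6.04 and 5.66 in controls and 5.70, 5.86, 6.40 and 5.19 with hydrogen water, and 1382986_at read 6.24, 6.16, 6.44 and 5.85 against 6.05, 5.62, 6.31 and 5.81. Hydrogen water array 3 was the highest of its group at both. The differences were −0.12 ± 0.23 and −0.23 ± 0.18 (SE; adjusted p = 0.893 and 0.693), with 95% intervals of −0.63 to 0.38 and −0.62 to 0.17. Leaving out 1 array moved the first between −0.33, without hydrogen water array 3, and 0.079, without array 4. The second was −0.35 without hydrogen water array 3, −0.14 without control array 3 and −0.12 without hydrogen water array 2.

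A single array stood apart at many of the members. Hydrogen water array 3 was the highest of its group at 10 of the 16 member probe sets, which were all of those for Fasn, Acaca, Acly, Srebf1 and Gpam and 1 for Elovl6. It was the lowest at 5, those of Fads1, Fads2, Elovl5 and Mlxipl. Against the control mean it stood 1.05 and 0.90 higher at Srebf1 and 0.94 and 0.73 higher at Fasn, and its difference from that mean was −1.07 at Fads1 and −0.998 at Fads2. Its median distance from the group mean was 0.46 over the members and 0.14 over all tested probe sets, where it was the highest of its group at 26.0% and the lowest at 28.4%. Other arrays had distances of 0.11 to 0.30 over the members and 0.12 to 0.14 over all tested probe sets. Of these, hydrogen water array 2 had 0.30 and control array 3 had 0.25 over the members. Probe sets of 1 gene share their transcript, and hydrogen water array 3 was singled out after its values were seen, so no test was made.

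Control array 1 was the highest control at 8 of the 16 member probe sets and the lowest at 0, beside 25.9% and 26.7% over all tested probe sets. Hydrogen water array 4 was the highest of its group at 0 and the lowest at 6, beside 22.6% and 21.4%. No test of these counts was made. Hydrogen water array 3 had a median correlation of 0.969 with the other arrays of its group, the lowest of the 8 arrays, where the others had 0.970 to 0.977. Its log2 3′ to 5′ ratio was 0.27 for Gapdh, the lowest of its group, and 1.66 for beta-actin, and its trimmed mean signal was 86.0. Its summed adipocyte marker signal of 185 was the highest of its group and inside the control range. Its summed skeletal muscle marker signal was 48.2 where controls ran from 4.22 to 9.22 and its group from 8.67, with Acta1, Ckm and Myh4 all below the median of all probe sets. Its stellate sum of 1606 lay below the control range of 1757 to 1937. Its endothelial sum of 2160 and erythroid sum of 4310 lay above the control ranges of 1778 to 2082 and 2816 to 4264. The part of these in the values of the array was not tested. Without it, the Srebf1 differences were −0.51 and −0.25, those of Fasn 0.25 and 0.093, that of Acly 0.14, those of Gpam −0.33 and −0.35, that of Fads1 −0.34, and 0 member probe sets passed.

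**Figure D3:**
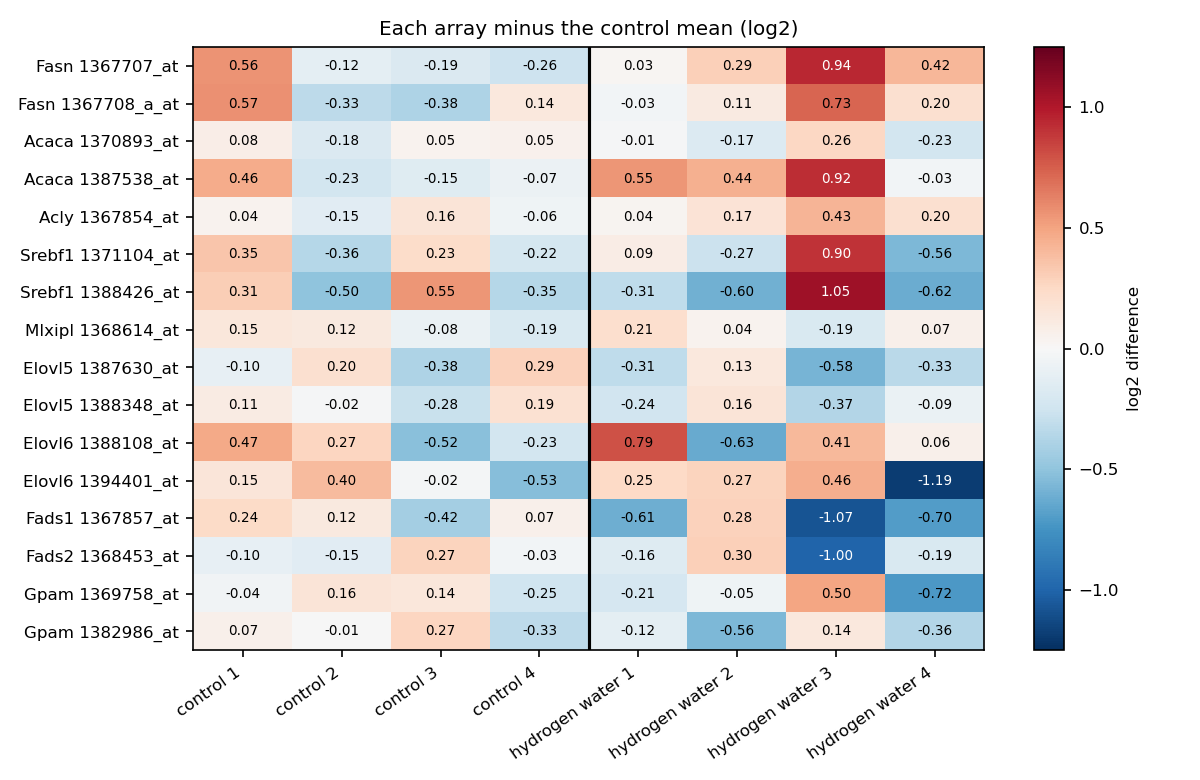
Log2 signal of each member probe set (rows) on each array (columns) minus the mean of the 4 control arrays, in color from blue (lower) to red (higher). Hydrogen water array 3 reads 1.05 at one Srebf1 probe set and −1.07 at Fads1.

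The rest of the pathway was followed through 59 further genes in 6 groups, of which 52 had a named probe set and 49 were tested, each by its brightest probe set. None passed in limma in either direction, 12 had an unadjusted p under 0.05 (7 higher, 5 lower), and the median difference was 0.00. That share of 12 in 49 was larger than the 12.5% of all tested probe sets. The gene lists were chosen with earlier results of these data known, so the comparison is a description and not a test. Hydrogen water array 3 was the highest of its group at 14 of the 49 and the lowest at 11, beside 26.0% and 28.4% over all tested probe sets. The groups did not overlap at Thrsp, Rxra and Hsd17b12, higher with hydrogen water, and at Usf1 and Lpcat3, lower with it. Among all tested probe sets 7.48% had groups that were fully apart. Acacb, Elovl3 and Pnpla3 fell below the filter on low signal.

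The group of 15 genes around SREBP-1c, ChREBP and LXR held the largest of these differences. It was at Thrsp, a small protein that follows thyroid hormone and carbohydrate and supports lipogenesis. Thrsp read 8.68, 8.47, 9.47 and 8.42 in controls and 9.57, 9.73, 11.03 and 10.01 with hydrogen water, so that the groups did not overlap. The difference of 1.32 ± 0.31 missed the threshold (SE; adjusted p = 0.0801), and its other probe sets differed by 1.33 and 1.46. It passed without control array 3, at 1.56 (adjusted p = 0.0303 in limma), and with spike-in scaling, at 1.41 (adjusted p = 0.0216). Rxra, the partner of LXR, differed by 0.39 ± 0.12 and Mbtps2, a protease that releases SREBPs, by −0.38 ± 0.13 (SE; adjusted p = 0.184 and 0.257). Mbtps2 passed without normalization, at −0.75. Of the 15, 0 passed in either direction and 4 had an unadjusted p under 0.05 (2 higher, 2 lower), the latter beside 12.5% of all tested probe sets. By value, 8 were higher and 7 lower with hydrogen water.

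Among 14 tested genes of esterification and acyl-CoA synthesis, 0 passed and 4 had an unadjusted p under 0.05, the latter beside 12.5% of all tested probe sets. Lpin1, a phosphatidate phosphatase, differed by 1.26 ± 0.39 (SE; adjusted p = 0.195), from 9.57, 9.35, 10.80 and 8.63 in controls to 11.57, 10.42, 10.95 and 10.47 with hydrogen water. Control array 3 lay among the hydrogen water arrays, and without it the difference was 1.67 and passed (adjusted p = 0.0243 in limma). Lpin1 passed in no other alternative, and its second probe set differed by 1.11 ± 0.38 (SE; adjusted p = 0.246 in limma). Dgat2, which makes triglyceride, differed by 0.24 ± 0.08, and Lpcat3, which places polyunsaturated chains into phospholipids, by −0.21 ± 0.07 (SE; adjusted p = 0.212 and 0.253). Their second probe sets differed by 0.24 ± 0.10 for Dgat2 and −0.07 ± 0.09 for Lpcat3 (SE; adjusted p = 0.326 and 0.827 in limma).

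The other desaturases and elongation enzymes were followed beside Fads1 and Elovl5. Elovl2, which lengthens the longest polyunsaturated fatty acids, read 8.80, 9.45, 8.99 and 9.60 in controls and 8.68, 8.998, 8.13 and 8.73 with hydrogen water, a difference of −0.57 ± 0.21 (SE; adjusted p = 0.273). Scd, the desaturase that makes oleate from stearate, read 7.82, 8.34, 8.62 and 8.02 in controls and 7.63, 7.58, 8.18 and 7.30 with hydrogen water, a difference of −0.52 ± 0.21 (SE; adjusted p = 0.319). Both passed without normalization between arrays, at −0.90 and −0.87, where the median of all probe sets stood at −0.27.

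In that same group of 4 desaturases Degs1, which acts on ceramide precursors, differed by 0.26 ± 0.11 and Scd2 by −0.40 ± 0.21 (SE; adjusted p = 0.356 and 0.492). Fads3 differed by 0.22 ± 0.23 (SE; adjusted p = 0.786 in limma), with a sign opposite to that of Fads1 and Fads2. By value, 2 of the 4 were higher and 2 lower with hydrogen water. Further Degs1 probe sets differed by 0.06 and 0.17. Of the 5 elongation enzymes Hacd2 and Hsd17b12, which take part in the later steps of each cycle, differed by −0.17 ± 0.12 and 0.07 ± 0.06. Of 6 genes for acetyl-CoA and malonyl-CoA, Acss2, which activates acetate, differed by 0.39 ± 0.17, and the pyruvate carrier subunit Mpc1 and malonyl-CoA decarboxylase Mlycd by −0.08 ± 0.07 and −0.12 ± 0.12. Of 5 genes for NADPH, the dehydrogenases Idh1 and Pgd differed by −0.14 ± 0.07 and 0.19 ± 0.12, and the transaldolase Taldo1 by −0.07 ± 0.09. The adjusted p-values of these 8 genes ran from 0.368 to 0.830.

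**Figure D4:**
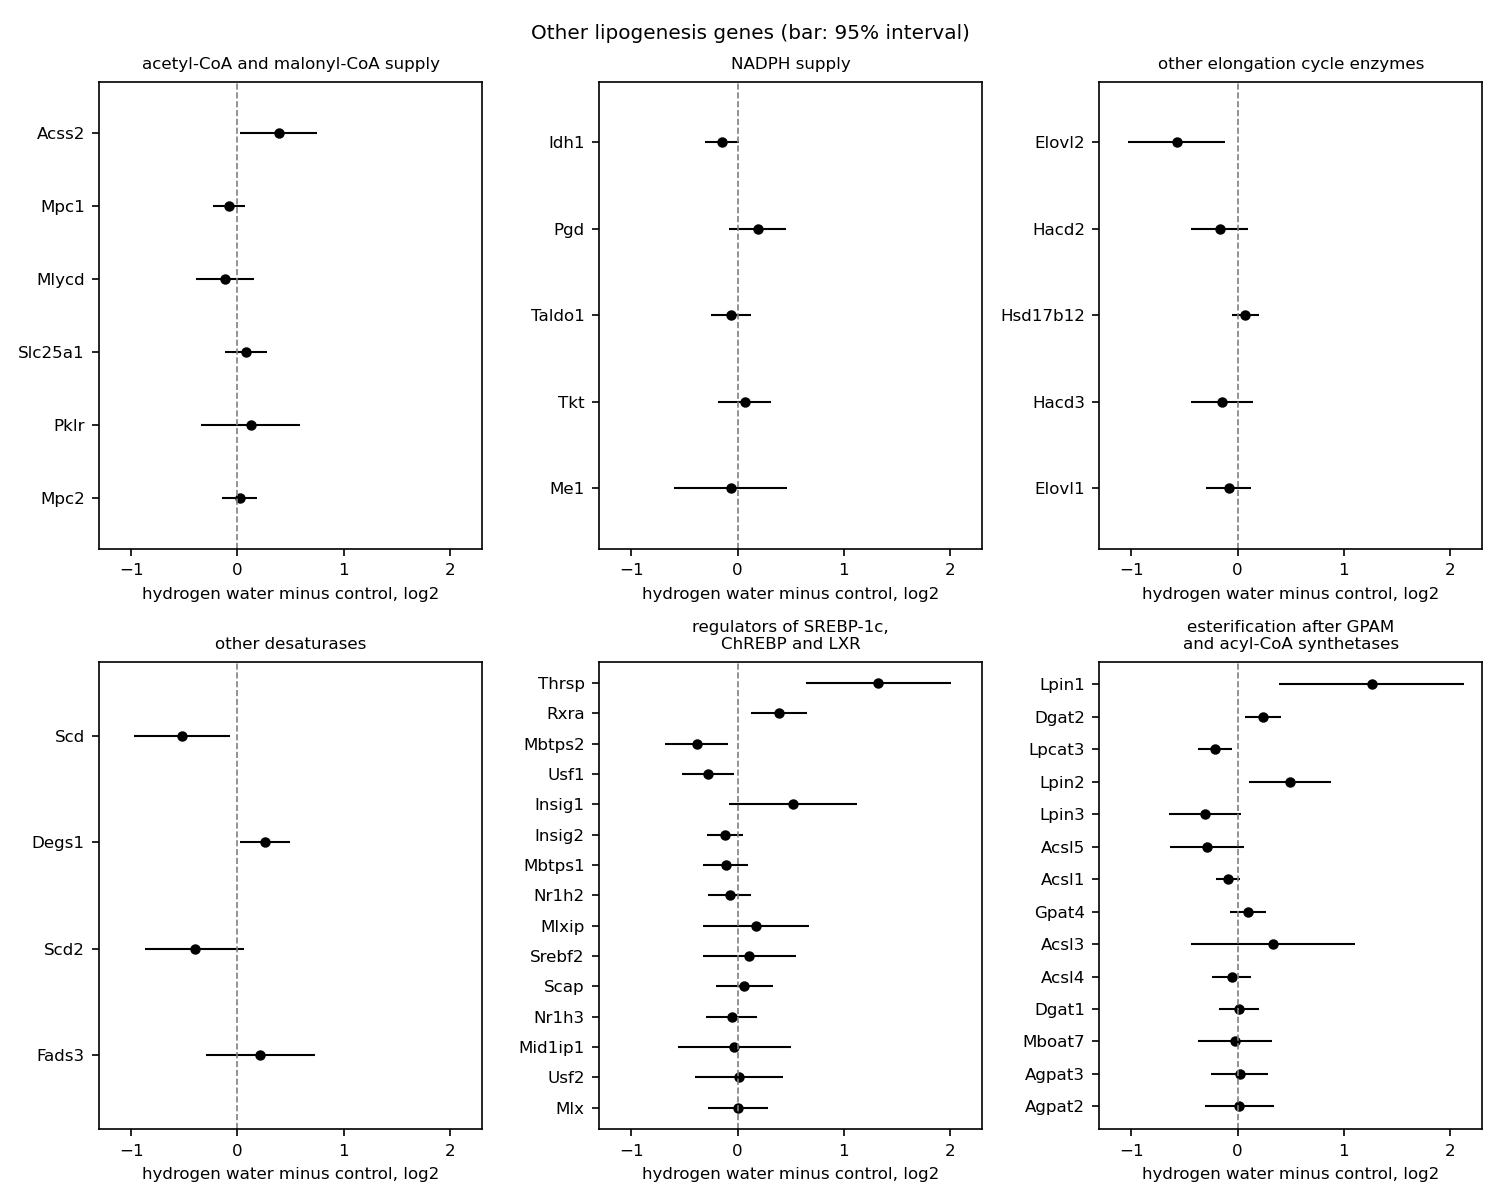
Change of the 49 other lipogenesis genes tested, as hydrogen water minus control in log2 (x axis), in 6 panels by role and in order of p within each, with 95% intervals from limma as bars. Thrsp at 1.32 and Lpin1 at 1.26 lie farthest to the right and Elovl2 at −0.57 farthest to the left, and none passed the threshold.

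The genes whose array profile was most like the mean profile of the 10 members were named by Pearson's r over the 8 arrays after the group means were taken out. Among 12218 candidate probe sets these were Zfand3, Smim1, Cd302, Cyp2c13 and Tti1, with r from 0.95 to 0.99 and Spearman's rho from 0.90 to 0.98. Without control array 1 and hydrogen water array 3, which lie farthest out, r was 0.79 to 0.93. The values are the highest of many and are given as a description with no test. The mean profile was shallow, from −0.10 to 0.19 in log2, since it averages members that went opposite ways on the same array.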

How the data were processed

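Liver RNA was hybridized to 8 Affymetrix arrays of 1 colour, per the labels' protocols. The deposited values are linear intensities that the authors made with MAS5, per the submitters' processing notes. The sources used here give neither its version nor its scaling target. No detection calls were used, so dim signals were set apart only by a filter. Signals were quantile-normalized over 31042 probe sets (57 controls left out), and log2 was taken after adding 2.05, which is 10% of the overall median. Such changes understate those of dim probe sets, and a shift of most transcripts one way would not be seen. Probe sets with a mean at or above the median, 15521, were compared with limma 3.58.1 (R 4.3.3; lmFit, eBayes with trend), Benjamini-Hochberg over all of them, threshold 0.05. Elovl6 lay below the filter and was taken from a fit without it. Symbols came from the platform annotation: 20832 probe sets had 1 symbol, 436 several and 9831 none, and 20764 matched RefSeq (GRCr8) by Entrez ID, with 0 symbols changed. The fit was tested on simulated data.

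All member probe sets were named. Of each further group, those past the threshold and otherwise up to 3 in order of p were named, and the 5 most like the mean member profile, for which each gene gave its brightest probe set. Fads3 and the further genes whose groups did not overlap were named in addition. The members and the gene lists were chosen with earlier results of these data known. Alternatives were other scalings, pseudocounts, filters and weights, no trend, a replicate block, another threshold and leaving out each array. Cell type lists for cholangiocytes, Kupffer cells, endothelial, stellate, lymphoid, erythroid and pancreas cells had 0 genes past the threshold among those tested in limma, and 2 endothelial genes had an unadjusted p under 0.05.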

Additional observations from a re-analysis of the deposited data

Results flagged for a closer look

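In 3 of the 32 sets of 4 arrays formed by the 16 member probe sets in each group, 1 array stood apart from the other 3 by more than Dixon's 95% critical value for the gap to the nearest array as a share of the whole range. Chance gives about 1 in 20 such sets. At Fasn 1367707_at the share was 0.837, with control array 1 at a log2 signal of 5.25 and the next at 4.56. At Acaca 1370893_at it was 0.869, with control array 2 at 7.50 below the next at 7.73. At Elovl6 1394401_at, below the signal filter, it was 0.875, with hydrogen water array 4 at 2.14 and the next at 3.58.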

How the results depend on the processing

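In all 21 alternatives 0 member probe sets passed in limma. Over all probe sets 128 passed, with 64 with no intensity trend in the prior, 505 without normalization, 353 at a threshold of 0.10, and 55 to 197 when 1 array was left out (61, 197 and 58 without control array 2, 3 or 4, and 61, 55 and 71 without hydrogen water array 1, 3 or 4). The count of other lipogenesis genes was 0, with 3 without normalization, 1 with spike-in scaling, 1 with the replicate block, 1 at the threshold of 0.10 and 0 to 2 without 1 array. Deviations of same-numbered arrays from their group means correlated at −0.10, 0.04, 0.19 and −0.00 over all tested probe sets. These values cannot decide whether replicate numbers pair the arrays, since an effect shared by some probe sets need not show over all. The replicate block gave 181 probe sets and 0 members, and let Thrsp pass (adjusted p = 0.00479). The median over the members was −0.35 without normalization, where that of all probe sets was −0.27, and −0.10 to 0.06 without 1 array.

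Fads1, Fads2, both Elovl5 probe sets, Fasn 1367707_at, Acaca 1387538_at and Gpam 1382986_at kept their sign in every alternative in which they were fitted. Others turned. Without normalization, which moved the median of all probe sets to −0.27 and so lowers most values alike, Fasn 1367708_a_at was −0.092, Acly −0.12, Srebf1 1371104_at −0.31, Mlxipl −0.31 and Elovl6 1388108_at −0.068. With median centring Srebf1 1371104_at was −0.054, Mlxipl −0.046 and Elovl6 1394401_at 0.090, the last also 0.10 by trimmed mean, 0.14 with spike-in scaling and 0.00 with the larger pseudocount. Array weights gave Srebf1 1371104_at −0.027, and spike-in scaling gave Acaca 1370893_at 0.006. Leaving out 1 array gave −0.14 to 0.027 for Acaca 1370893_at, −0.25 to 0.24 for Srebf1 1371104_at, −0.51 to 0.064 for Srebf1 1388426_at, −0.029 to 0.11 for Mlxipl, −0.057 to 0.42 for Elovl6 1388108_at, −0.23 to 0.33 for Elovl6 1394401_at and −0.33 to 0.079 for Gpam 1369758_at. None of these values passed in any setting, and the cause of each turn was not tested. The 95% intervals of the members reach from −1.07 at Fads1, a bright probe set, to 1.00 at Acaca 1387538_at, a dimmer one. The SE of the tested members ran from 0.11 to 0.36, with the largest at Srebf1 1388426_at. Changes that lie within an interval are not excluded with 4 arrays per group, at bright or at dim probe sets.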
